A study of Mus musculus with 6 samples.

Results

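The transcription factors that direct chondrocyte fate and maturation were followed in the growth plate of mice with a deletion of Hnrnpk targeted to chondrocytes. They are 10 of the 15803 genes measured: Sox9, Sox5, Sox6, Runx1, Runx2, Runx3, Mef2c, Mef2d, Nkx3-2 and Trps1. They were chosen for their known role in cartilage and taken from the data by gene symbol, each with 1 entry. Growth plate cartilage of E18.5 embryos was sequenced with a stranded mRNA kit, giving 6 libraries. For the label CKO (3 libraries) the embryos were Col2a1-Cre;Hnrnpk fl/fl: the Col2a1 promoter drives Cre in chondrocytes and Cre removes loxP-flanked exons of Hnrnpk. For the label WT (3 libraries) they were Hnrnpk fl/fl, so both groups carried the floxed alleles and the groups differed by the Cre transgene and the deletion it makes. Embryos of both sexes were used, and the labels call the material growth plate chondrocytes while the methods describe RNA of the whole cartilage growth plate. The sources used here do not say whether the libraries came from separate embryos, so p-values measure only the spread between these samples, which may be technical.

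Sox9 is the factor that specifies chondrocytes and switches on the genes of cartilage matrix, and Sox5 and Sox6 bind beside it on these genes, so that the 3 are called the Sox trio. Runx2, helped by Runx3 and by Mef2c, drives proliferating chondrocytes into hypertrophy, the enlargement that precedes bone formation, and Runx2 is also required for osteoblasts. Nkx3-2 and Trps1 are repressors that hold this step back, the former by repressing Runx2 and the latter by binding GATA sites and by opposing Runx2.

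Values are CPM, the reads on a gene as a share of the reads on all listed genes of the library, scaled to the same total in every library. The libraries were shallow, with 1183743 to 1379674 reads in those labelled WT and 1153871 to 1454094 in those labelled CKO, so that 1 read was worth 0.688 to 0.867 CPM. Intervals from reads and the floor of 3 reads (2.06 to 2.60 CPM) cover counting error only. Hnrnpk itself, listed as a whole gene and not by exon, stood at 842, 955 and 944 CPM in WT 1 to 3 and at 759, 950 and 780 CPM in CKO 1 to 3. Its log2 fold change was -0.14 (SE 0.15, limma adjusted p = 0.622). The targeted gene therefore did not separate the libraries, and every direction given here rests on the labels. The library labelled CKO 2 stood apart from CKO 1 and CKO 3 on the second principal component (41.6 against -18.5 and -17.7). Where leaving it out adds a call for a gene named here, the added call is stated. Leaving it out also raised the limma calls over all genes at an adjusted p under 0.05. They went from 387 higher and 316 lower of 12155 genes to 692 and 606 of 12055. The chondrocyte markers Col2a1, Acan, Sox9, Matn1, Col9a1 and Hapln1 were all detected and summed to 11959 to 16009 CPM in the WT and 3334 to 4003 CPM in the CKO libraries. Their log2 fold changes ran from -3.76 to -0.20. All of them but Sox9 are also among the Sox9 and Sox trio targets read below, so the fall of the markers and that of the targets are not separate observations.

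The 300-base windows around transcription starts show which of these factors carry, at their own start, the short words that Sox and Runx proteins bind. Windows ran from 250 bases before to 50 bases after each start on GRCm38.p6 and came from RefSeq, and the table used held 17 windows for 8 of the 10 factors, all but Sox9 and Trps1. The Sox word was ACAAAG or ACAATG and the Runx word ACCACA or ACCGCA, each searched on both strands, so a word of the opposite strand appears as its reverse complement, and the words of both kinds may share letters. The Mef2 box was searched as well. 3 windows are shown, those with the most Runx words and the most Sox words among the factors and that of Matn1, the Sox target with the largest change, and capitals mark the words. The Runx2 window is chr17:44814578-44814877 on the minus strand, with 4 Runx words and no Sox word.
Runx2: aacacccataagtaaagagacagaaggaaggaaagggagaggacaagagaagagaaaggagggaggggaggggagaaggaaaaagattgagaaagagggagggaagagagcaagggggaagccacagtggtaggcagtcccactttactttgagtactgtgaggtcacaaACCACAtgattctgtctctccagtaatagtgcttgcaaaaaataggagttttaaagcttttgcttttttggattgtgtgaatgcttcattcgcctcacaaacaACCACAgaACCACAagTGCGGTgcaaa
The Sox6 window is chr7:115995037-115995336 on the minus strand, with 4 Sox words and no Runx word.
Sox6: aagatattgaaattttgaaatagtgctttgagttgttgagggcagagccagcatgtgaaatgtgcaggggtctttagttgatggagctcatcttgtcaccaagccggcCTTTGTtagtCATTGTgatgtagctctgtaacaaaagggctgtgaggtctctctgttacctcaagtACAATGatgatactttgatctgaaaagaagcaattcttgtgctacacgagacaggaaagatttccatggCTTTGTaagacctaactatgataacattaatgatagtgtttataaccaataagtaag
The Matn1 window is chr4:130944135-130944434 on the plus strand, with 1 Runx word and no Sox word.
Matn1: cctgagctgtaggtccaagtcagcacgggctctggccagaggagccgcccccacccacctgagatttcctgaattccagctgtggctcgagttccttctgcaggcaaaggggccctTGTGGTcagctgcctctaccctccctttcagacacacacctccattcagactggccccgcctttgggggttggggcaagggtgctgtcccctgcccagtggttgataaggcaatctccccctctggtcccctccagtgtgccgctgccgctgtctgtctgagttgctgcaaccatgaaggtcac
Of all 32851 windows, 28.6% held a Sox word, 22.4% a Runx word and 3.69% a Mef2 box. Among the 17 windows of the factors, 8 held a Sox word, 5 a Runx word and 1 a Mef2 box, and the single window of Mef2d held none. The windows with a Sox word were those of Sox6, Mef2c and Sox5 only. Sox6 and Mef2c have several windows each, so windows are not separate genes. For 28 of the 35 windows of factors and Sox targets, the first 40 transcribed bases lay in an annotated transcript of a listed gene. Among 18 windows of 15 Sox target genes, 1 held a Sox word, 4 a Runx word and 1 a Mef2 box. A match is a description of the letters in the window, and many enhancers of cartilage genes lie outside it.

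None of the 10 factors differed between the genotypes past the adjusted threshold, while most of the genes listed as Sox9 targets were lower in the CKO libraries. Sox9 had a lower mean in CKO (49.2 ± 21.7 against 84.0 ± 17.2 CPM, SD, n = 3) and Mef2d a higher one (21.3 ± 4.90 against 11.1 ± 5.46 CPM), and for both the libraries of the groups overlapped. Of the 9 factors tested, 0 were called higher and 0 lower at an adjusted p under 0.05 in limma on log2(CPM + 1), where 3.18% of all 12155 tested genes were called higher and 2.6% lower. At the rule of a log2 fold change beyond 1 in either direction with an unadjusted p under 0.05, 0 factors passed, against 5.3% of genes higher and 5.1% lower. The groups overlapped for all 9, whereas 14.5% of genes were higher and 13.2% lower in CKO without overlap. An unadjusted p under 0.05 was reached by 2 of the 9, Sox9 and Mef2d, against 21.3% of all genes. On the recovered reads, edgeR's quasi-likelihood test called 0 of the 5 factors it kept (2 with an unadjusted p under 0.05), and DESeq2 called 0 of the 6 to which it gave an adjusted p (1 with an unadjusted p under 0.05). The log2 fold changes were negative for 5 factors and positive for 4, with a median of -0.25 against 0.013 over all tested genes.

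**Figure D1:**
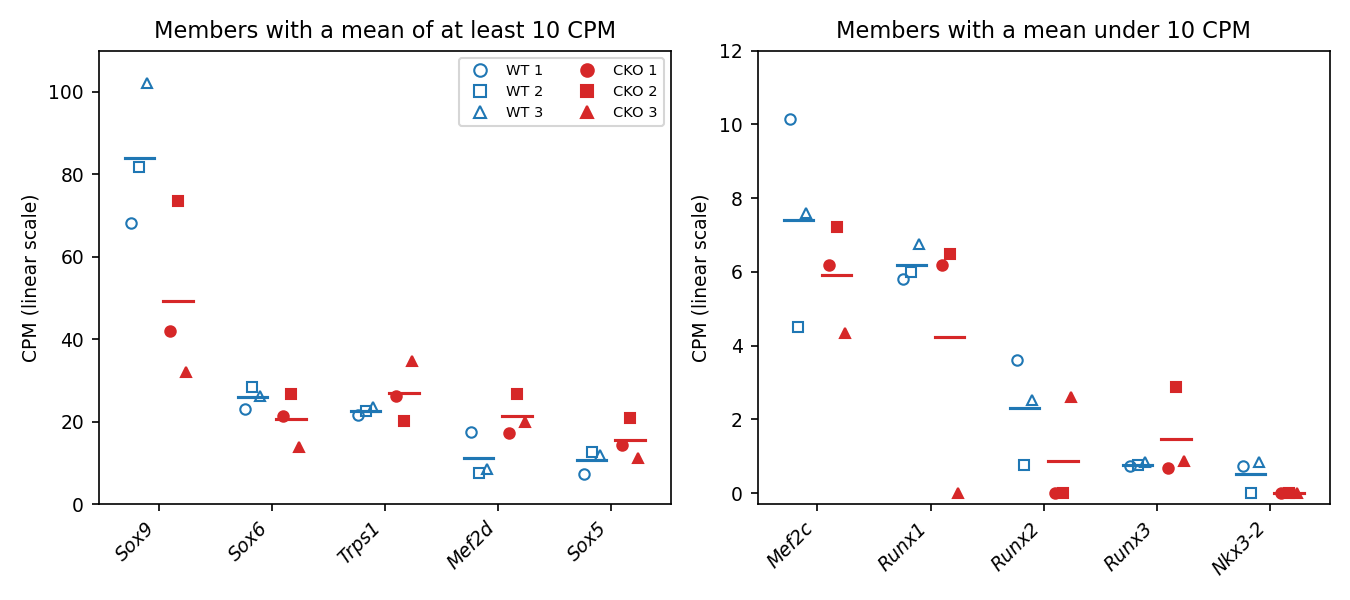
CPM of each of the 10 factors in each library on linear axes, with the 5 factors of a mean of at least 10 CPM on the left and the other 5 on the right, 1 point per library and a line at the mean of each group of 3. The mean of Sox9 is the highest in both groups. Trps1 lies above Sox9 in CKO 3 (34.7 against 32.1 CPM), and CKO 2 lies among the WT libraries for Sox9. Runx2, Runx3 and Nkx3-2 lie at 5 reads or fewer in every library.

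Per kilobase of exon, Sox9 was the most abundant of the 10 in the WT libraries, at 20.3 ± 4.15 CPM per kb (SD, n = 3). Mef2d (1.86 ± 0.912), Sox6 (1.75 ± 0.180) and Trps1 (1.69 ± 0.0718 CPM per kb) followed and did not differ beyond their spread. Sox5 (0.738 ± 0.205), Runx1 (0.514 ± 0.0420), Mef2c (0.472 ± 0.180), Nkx3-2 (0.305 ± 0.266), Runx2 (0.261 ± 0.164) and Runx3 (0.155 ± 0.0126 CPM per kb) came last, and no neighbours in this group were separated. The WT libraries of one factor lay wholly above those of the next at 2 places in the order, after Sox9 and after Trps1. In CKO the mean of Sox9 was 11.9 CPM per kb, still the highest, and Mef2d was next at 3.56 CPM per kb.

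Sox9 (GRCm38 11:112782224-112787760, plus strand) was read 94, 109 and 121 times in the WT libraries, or 68.1, 81.8 and 102 CPM. In CKO 1 to 3 it was read 61, 102 and 37 times, or 42.0, 73.6 and 32.1 CPM. CKO 1 and CKO 3 lay below every WT library, at 49.9% and 38.2% of the WT mean, whereas CKO 2, at 87.6%, lay above WT 1. The log2 fold change was -0.83 (SE 0.29, 95% interval -1.48 to -0.17, limma adjusted p = 0.137), and an exact two-sided permutation test over the 6 libraries gave p = 0.2, where the smallest possible value is 0.1. Without CKO 2 the log2 fold change was -1.15 (limma adjusted p = 0.00888; edgeR -1.21, adjusted p = 0.0104). Over all 6 left-out fits it ranged from -1.15 to -0.57, and the call was made only in the fit without CKO 2. In tissue RNA, fewer cells of a type and less RNA per cell cannot be told apart.

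Sox5 (GRCm38 6:143828425-144781977, minus strand), the partner that lacks an activation domain of its own, gave 10, 17 and 14 reads in WT and 21, 29 and 13 in CKO. In CPM these were 7.25, 12.8 and 11.8 against 14.4, 20.9 and 11.3. CKO 1 and CKO 2 lay above all WT libraries and CKO 3 among them, with a log2 fold change of 0.50 (95% interval -0.26 to 1.27, limma adjusted p = 0.439). Sox6 (GRCm38 7:115470872-116038796, minus strand), its close relative, stood at 23.2, 28.5 and 26.2 CPM in WT and 21.3, 26.7 and 13.9 CPM in CKO. The CKO 1 and CKO 3 libraries were below the WT range and CKO 2 was inside it (log2 fold change -0.36, 95% interval -0.99 to 0.27, limma adjusted p = 0.511).

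Within each library Sox5 and Sox6 stood higher relative to Sox9 in CKO than in WT. Sox5 reads per Sox9 read were 0.106, 0.156 and 0.116 in WT and 0.344, 0.284 and 0.351 in CKO, so that all 3 CKO libraries, CKO 2 included, lay above all WT libraries. On the log2(CPM + 1) scale the ratio of Sox5 to Sox9 was -2.89 ± 0.26 in WT and -1.56 ± 0.18 in CKO (SD, n = 3), a difference of 1.33 with the smallest possible exact two-sided permutation p of 0.1 (0.3 after adjustment over the 6 ratios compared). The Sox6 to Sox9 ratio was -1.64 ± 0.24 and -1.18 ± 0.24, also without overlap, a difference of 0.47 with the same exact p of 0.1 (adjusted 0.3). The ratio to Sox9 was higher in CKO without overlap for 33.8% of all genes and lower for 0.971%, since every such ratio holds Sox9's own level, so a rise relative to Sox9 was common and not particular to Sox5 and Sox6.

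**Figure D2:**
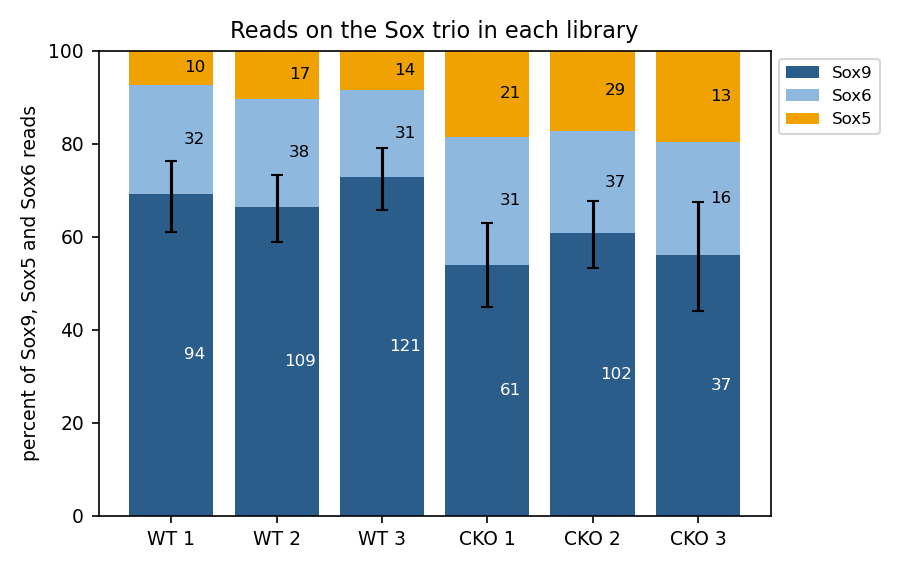
Share of Sox9, Sox5 and Sox6 in the reads of the Sox trio in each library as stacked bars from 0 to 100%, with the reads of each gene printed in the bars and the 95% Wilson interval of the Sox9 share as error bars. Sox9 held 66.5% to 72.9% in the 3 WT libraries and 54.0% to 60.7% in the 3 CKO libraries.

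As a share of the trio's reads, a measure chosen after the data were seen, Sox9 made up 69.1% (Wilson 95% interval 60.9% to 76.3%), 66.5% (58.9% to 73.2%) and 72.9% (65.7% to 79.1%) in WT 1 to 3. In CKO 1 to 3 it made up 54.0% (44.8% to 62.9%), 60.7% (53.2% to 67.8%) and 56.1% (44.1% to 67.4%). Every CKO share was lower than every WT share, though the intervals of single libraries overlapped in part. The share restates the ratios of Sox5 and Sox6 to Sox9 and is no separate result. A rise relative to Sox9 without overlap was found for 33.8% of all genes. The means were 69.5% ± 3.23 and 56.9% ± 3.45 (SD, n = 3; exact two-sided permutation p = 0.1, the smallest possible). Sox5 took 7.35%, 10.4% and 8.43% of the trio in WT and 18.6%, 17.3% and 19.7% in CKO.

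The Runx factors were at the lower edge of what this depth can measure. Runx1 (GRCm38 16:92601466-92826149, minus strand), which acts in early chondrocyte precursors and in blood, gave 8 reads in each WT library and 9, 9 and 0 in CKO. Only CKO 3 set it apart, with a log2 fold change of -0.93 (95% interval -2.48 to 0.63, limma adjusted p = 0.491) that became 0.033 without CKO 3. Runx2 (GRCm38 17:44495987-44814797, minus strand) gave 5, 1 and 3 reads in WT and 0, 0 and 3 in CKO, 12 reads in all. Its groups overlapped, and the interval of its log2 fold change of -0.997 ran from -2.43 to 0.44 (limma adjusted p = 0.411). The value depends on the pseudocount, being -2.76 at 0.1 CPM, and ranged from -1.61 without CKO 3 to -0.69 without CKO 1 or CKO 2. Runx3 (GRCm38 4:135120652-135177990, plus strand), which overlaps with Runx2 in function, gave 1 read in 5 libraries and 4 reads in CKO 2 (log2 fold change 0.38, 95% interval -0.77 to 1.52, limma adjusted p = 0.725; 0.59 at a pseudocount of 0.1 CPM). The intervals of the Runx factors are wide in both directions. Together the 3 gave 14, 10 and 12 reads in WT and 10, 13 and 4 in CKO.

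Mef2c (GRCm38 13:83504034-83667080, plus strand), the Mef2 factor needed for chondrocyte hypertrophy, stood at 10.1, 4.50 and 7.60 CPM in WT and 6.19, 7.22 and 4.33 CPM in CKO. The groups were intermingled, with a log2 fold change of -0.25 (95% interval -1.13 to 0.64, limma adjusted p = 0.768). Mef2d (GRCm38 3:88142372-88172086, plus strand), a paralog that binds the same DNA word, stood at 17.4, 7.50 and 8.45 CPM in WT and 17.2, 26.7 and 19.9 CPM in CKO. WT 2 and WT 3 were the low libraries, and WT 1 lay just above CKO 1, which is what kept the groups from separating. Its log2 fold change of 0.95 (SE 0.36, 95% interval 0.16 to 1.73) had a limma adjusted p of 0.157, and the exact two-sided permutation test gave p = 0.2. With each library left out in turn it ranged from 0.73 to 1.29 (limma adjusted p 0.106 to 0.380).

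Of the repressors, Nkx3-2 (GRCm38 5:41761483-41764501, minus strand) was read once in WT 1 and once in WT 3 and was not read in any other library. It was at or below the floor of 3 reads in every library, was not tested, and no fold is given. Trps1 (GRCm38 15:50654752-50890463, minus strand) was steady in WT at 21.7, 22.5 and 23.7 CPM and stood at 26.1, 20.2 and 34.7 CPM in CKO. CKO 1 and CKO 3 lay above the WT range and CKO 2 below it, the reverse of their order for Sox9 (log2 fold change 0.21, 95% interval -0.36 to 0.79, limma adjusted p = 0.689). The other ratios fixed between factors did not separate the groups: Mef2c to Sox9 differed by 0.58 and Trps1 to Runx2 by 1.21 on the log2 scale (exact permutation p = 0.2 each, adjusted 0.3). Runx2 to Sox9 differed by -0.17 and Runx1 to Runx2 by 0.071 (exact permutation p = 1 each). The last 3 of these rest on the few reads of Runx2.

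**Figure D3:**
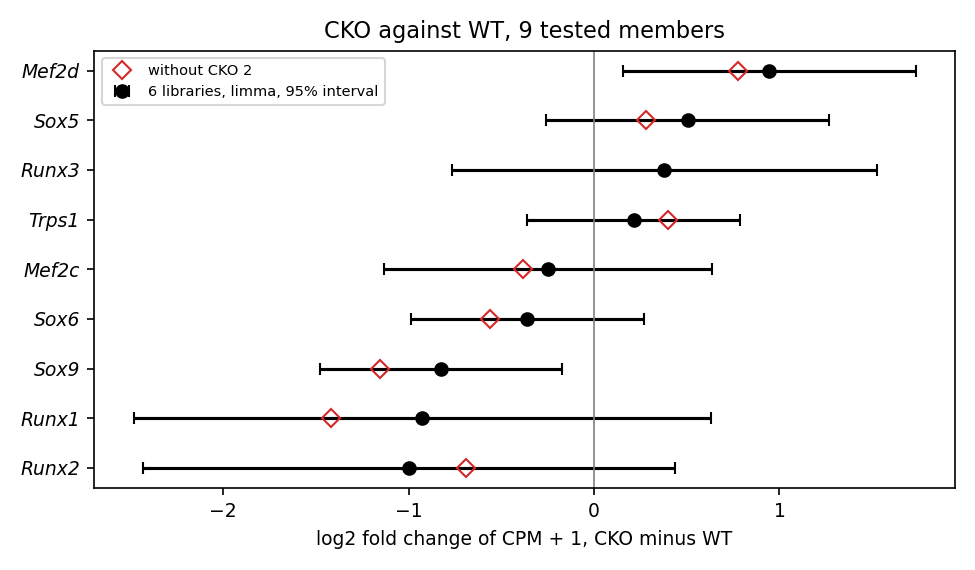
Log2 fold change of CKO against WT on the log2(CPM + 1) scale for the 9 factors tested, with its 95% interval from limma, and as open diamonds the same value without CKO 2, where Runx3 fell below the filter on low values and has none. Sox9 (-0.83) and Mef2d (0.95) have intervals that do not reach 0 before adjustment, and the intervals of the Runx factors span more than 2 log2 units.

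Exons of genes on the opposite strand overlap the exons of Sox5, Runx1, Runx2 and Mef2d, and the setting for strand used in counting is not given in the sources used here, so reads of such partners cannot be told apart from theirs. No factor shared a stretch of at least 300 bp at 90% identity with a transcript of another gene.

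Of the gene lists read here, the known target genes of Sox9 and the Sox trio in cartilage held the most calls. The list was chosen with earlier results of these data known, so its counts describe the list and do not test it. Of 20 targets, all tested, 15 were lower in CKO past the adjusted threshold and 0 were higher, where 2.6% of all genes were called lower and 3.18% higher. Without overlap 19 were lower, against 13.2% of all genes. Their median log2 fold change was -1.53 against 0.013 over all tested genes. The call was made for 11 to 16 of them when 1 library was left out, for 16 without CKO 2 (the added one was Trpv4), and for 15 of the 19 kept by edgeR. Matn1, a matrilin of the cartilage matrix, fell from 6283, 6410 and 7830 CPM in WT to 612, 356 and 577 CPM in CKO (log2 fold change -3.76, limma adjusted p = 2.3e-05). Comp, a pentameric matrix glycoprotein, stood at 1642, 1253 and 1809 CPM in WT and 191, 165 and 193 CPM in CKO (log2 fold change -3.08, limma adjusted p = 2.3e-05). Both were several-fold below the lowest WT library in all 3 CKO libraries.

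Ucma, a secreted protein of the upper growth plate, fell by 3.33 on the log2 scale (limma adjusted p = 0.000122), and Cnmd, the angiogenesis inhibitor chondromodulin, fell by 2.68 (limma adjusted p = 0.000139). Of the collagen chains that decorate and nucleate type II fibrils, Col9a3 fell by 3.08, Col11a2 by 2.90, Col9a2 by 2.57 and Col9a1 by 2.5 on the log2 scale. Col11a1, named after its values were seen, fell less, to 38.6%, 45.7% and 37.0% of the WT mean in CKO 1 to 3. Col2a1, the main collagen of cartilage, changed less: 2720, 3133 and 3944 CPM in WT and 1411, 1950 and 1427 CPM in CKO (log2 fold change -1.03, limma adjusted p = 0.0119). Acan, which encodes the large proteoglycan aggrecan, stood at 482, 477 and 746 CPM in WT and 186, 276 and 147 CPM in CKO (log2 fold change -1.50, limma adjusted p = 0.00859). The 5 targets that were not called, Hapln1, Fgfr3, Trpv4, Chadl and Xylt1, had log2 fold changes of -0.20, -0.29, -0.69, -1.18 and -0.48 and are named after their values were seen. Of these, Hapln1, the link protein of aggrecan, was at 847 to 1189 CPM in WT and 837 to 891 CPM in CKO, and is the target whose groups overlapped.

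**Figure D4:**
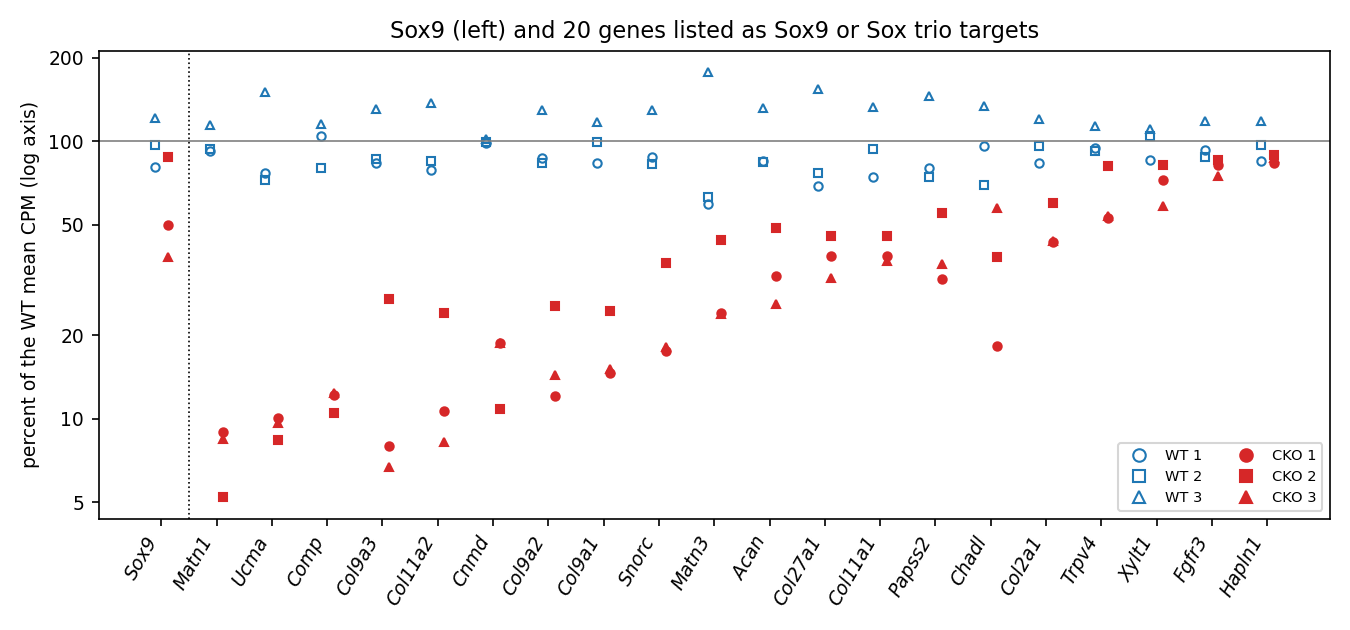
Level of Sox9 and of its 20 target genes in each library as a percentage of the mean of the 3 WT libraries, on a log axis, with 1 point per library. In CKO 2 Sox9 stands at 87.6% of the WT mean, and the targets run from 5.20% (Matn1) to 89.0% (Hapln1) with a median of 41.2%.

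Set beside Sox9, 16 of the 20 targets had a log2 fold change below that of Sox9, and the median of the difference was -0.71. Their ratio to Sox9 was lower in CKO without overlap for 11 of the 20 and higher for 0, where 0.971% of all genes were lower in this way. In CKO 2, where Sox9 was at 87.6% of the WT mean and below 2 of the 3 WT libraries, 19 of the 20 targets were below the lowest WT library. Their median there was 41.2% of the WT mean. In CKO 1 and CKO 3, where Sox9 was at 49.9% and 38.2%, 20 and 19 of the targets were below the lowest WT library, with medians of 21.4% and 24.9%. The order of the CKO libraries was not the same for all targets: Col9a3 stood at 8.0%, 27.1% and 6.7% of the WT mean in CKO 1 to 3, following Sox9, while Matn1 stood at 8.9%, 5.2% and 8.4% and Cnmd at 18.8%, 10.8% and 18.7%. The share of all genes with a log2 fold change below that of Sox9 was not counted. Nor was the share below the lowest WT library in a single CKO library, so how unusual these counts are was not measured. The targets share libraries and tissue with Sox9, so these are values side by side and no test of a relation.

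The genes that Runx2 and Mef2 factors drive in hypertrophic chondrocytes and osteoblasts were mostly higher on average in CKO, and for some of them CKO 2 parted from the other CKO libraries. Of 15 such genes 14 were tested, 1 was called higher and 0 lower, where 3.18% of all genes were called higher and 2.6% lower. The log2 fold changes were positive for 12 and negative for 2, with a median of 0.84 (0.76 without CKO 2) against 0.013 over all genes. At an unadjusted p under 0.05, 5 were higher and 1 lower, where 21.3% of all genes passed in either direction. Without overlap 2 were higher and 1 lower, against 14.5% and 13.2% of all genes. Spp1, which encodes the bone matrix protein osteopontin, rose from 1037, 1095 and 3769 CPM in WT to 11114, 11877 and 12045 CPM in CKO (log2 fold change 2.84, limma adjusted p = 0.00403). All CKO libraries were high for it, CKO 2 included, and the groups did not overlap. Without CKO 2, 5 of these targets were called higher in limma and 5 in edgeR. More genes of all kinds were called in those fits, 692 of 12055 higher in limma and 659 of 8129 in edgeR. With all 6 libraries limma called 387 of 12155 higher. The 5 targets in limma were Spp1, Mmp13, Ibsp, Bglap and Bglap2, of which the last 4 are named after their values were seen.

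Mmp13, the collagenase of terminal hypertrophic cartilage, stood at 257, 260.4 and 650.5 CPM in WT and 2155, 377 and 2301 CPM in CKO, with CKO 2 inside the WT range. Ibsp, bone sialoprotein, stood at 129, 82.5 and 109 CPM in WT and 708, 83.0 and 808 CPM in CKO. For Bglap2, an osteocalcin gene, the values were 50.7, 69.0 and 30.4 CPM in WT and 289.5, 35.4 and 257 CPM in CKO. In each of these CKO 1 and CKO 3 were several-fold above every WT library and CKO 2 was not, and in the fit of all 6 libraries the limma adjusted p was 0.118 for Mmp13, 0.166 for Ibsp and 0.214 for Bglap2. Bglap and Bglap2 are close copies whose reads could be split between them by counting. Col10a1, the collagen that marks hypertrophic chondrocytes and also named after its values were seen, did not follow them, with 13.1, 15.8 and 43.9 CPM in WT and 24.8, 45.5 and 16.5 CPM in CKO (limma adjusted p = 0.738). Runx2 itself was not detected in CKO 1, where Mmp13, Ibsp and Bglap2 were high, nor in CKO 2, where they lay in the WT range. In CKO 3, where they were high, it was read 3 times. With 12 Runx2 reads over all libraries, its relation to these genes was not tested.

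**Figure D5:**
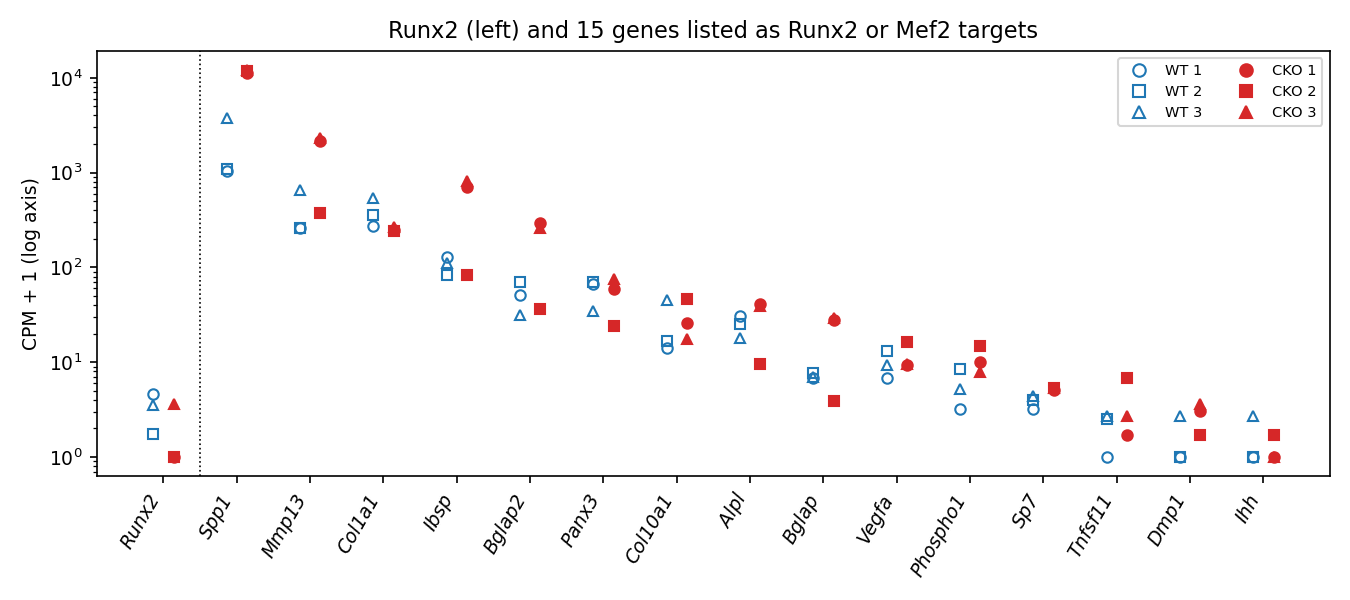
CPM + 1 of Runx2 and of its and Mef2's target genes in each library on a log axis, with 1 point per library. Spp1 is high in all 3 CKO libraries, while Mmp13, Ibsp and Bglap2 are high in CKO 1 and CKO 3 and in CKO 2 lie in the WT range.

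No listed partner or regulator of these factors was called with all 6 libraries. Of 21 partners and regulators of Runx and Mef2 factors, which include the Runx cofactor Cbfb and the histone deacetylases that silence Mef2c, 18 were tested and 0 were called in limma, edgeR or DESeq2. Of these 18, 2 had an unadjusted p under 0.05, both higher, and 0 were called without CKO 2. Over all genes 21.3% had an unadjusted p under 0.05 in either direction, which is the share for both lists here. Their log2 fold changes were positive for 15 and negative for 3, with a median of 0.45 against 0.013 over all genes, and 6 were higher without overlap, where 14.5% of all genes were. Of 14 partners and regulators of Sox9, 13 were tested, 0 were called in the 3 tools, and the median was 0.018. At an unadjusted p under 0.05, 1 was higher and 1 lower, both called without CKO 2. Without overlap 1 was higher and 3 lower, against 14.5% and 13.2% of all genes. Hdac4, Yap1, Arid5b and Wwp2 are the 4 with an unadjusted p under 0.05 and are named after their values were seen. Hdac4, a deacetylase that represses Runx2 and Mef2c, stood at 5.07, 6.0 and 5.07 CPM in WT and 8.25, 10.8 and 10.4 CPM in CKO (log2 fold change 0.76, limma adjusted p = 0.222). Wwp2, a ubiquitin ligase that is itself a target and a partner of Sox9, stood at 541, 534 and 818 CPM in WT and 332, 517 and 340 CPM in CKO (log2 fold change -0.67, limma adjusted p = 0.111; without CKO 2 -0.88, adjusted p = 0.0131). Arid5b, a chromatin factor that works with Sox9, stood at 9.42, 15.8 and 14.4 CPM in WT and 34.4, 17.3 and 32.9 CPM in CKO. All CKO libraries lay above the WT libraries, CKO 2 narrowly (log2 fold change 1.01, limma adjusted p = 0.110; without CKO 2 1.32, adjusted p = 0.0183).

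Of 6 paralogs of the Sox, Mef2 and Nkx3 factors, 3 were tested in limma and 0 were called (1 with an unadjusted p under 0.05). That gene, Sox8, a relative of Sox9 named after its values were seen, was called lower by DESeq2 and was not among the genes kept by edgeR, which tested 1 of the paralogs and called 0. It stood at 8.70, 6.0 and 34.6 CPM in WT and 2.06, 4.33 and 0.867 CPM in CKO. Its groups did not overlap, and its log2 fold change was -2.10 (limma adjusted p = 0.0816). Without CKO 2 it was -2.49 (limma adjusted p = 0.0346), the only call in the 6 left-out fits. Without WT 3, its highest library, it was -1.40 (limma adjusted p = 0.192). Of 27 other skeletal transcription factors, 22 were tested, 0 were called in the 3 tools, and the median was -0.069. Among them 2 were higher and 3 lower at an unadjusted p under 0.05, where 21.3% of all genes passed in either direction. Without overlap 4 were higher and 4 lower, against 14.5% and 13.2% of all genes. Prrx1, a factor of limb mesenchyme and early skeletal precursors and the lowest p of this list, stood at 28.3, 24.0 and 18.6 CPM in WT and 61.2, 33.2 and 51.1 CPM in CKO (log2 fold change 0.98, limma adjusted p = 0.0674; without CKO 2 1.23, adjusted p = 0.0105). It too is named after its values were seen.

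Markers of other cells that a dissected growth plate can hold were read beside these results, and their part in them was not tested. Of 8 markers of perichondrium, tendon and fibroblasts, 7 were tested, all with negative log2 fold changes, and 1, the proteoglycan gene Dcn, was called lower (log2 fold change -1.89, limma adjusted p = 0.00429), with 2 called without CKO 2. They summed to 3288, 3748 and 5311 CPM in WT and 2547, 1261 and 2517 CPM in CKO. Of 6 osteoclast markers 4 were tested and 0 called, with sums of 89.9 to 97.1 CPM in WT and 106 to 117 CPM in CKO. Of 10 lymphoid and myeloid markers 4 were tested and 1, Cd68, was higher (log2 fold change 2.74, limma adjusted p = 0.00114). Their sum was 62.3, 63.8 and 291 CPM in WT and 190, 170 and 198 CPM in CKO. Ptprc, which marks all white blood cells and is named after its values were seen, was at 0 except for 1 read in CKO 2. Of 8 muscle markers 6 were tested and 0 called, and their sum was 36.8 to 156 CPM in WT, 87.3 and 84.9 CPM in CKO 1 and CKO 3 and 250.5 CPM in CKO 2. Of 6 epidermis markers 2 were tested and 1, Sbsn, was higher (log2 fold change 3.78, limma adjusted p = 0.00466), with sums of 20.3 to 42.0 CPM in WT and 61.4 to 118 CPM in CKO. Endothelial (0 of 6 tested), red blood cell (1 of 5) and Schwann cell and neuron markers (2 of 5) summed to at most 7.22 CPM in any library, and 0 of them were called.

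The genes whose levels ran most like a factor over the 6 libraries were sought among the 6827 genes whose mean was 10 CPM or more, as a description of points that share library and depth. For Sox9 they were the cohesin subunit Smc3 (Pearson r of log2(CPM + 1) 0.997), Rflnb (0.989) and the RNA helicase Ddx1 (0.988). Smc3 stood at 79.7, 86.3 and 92.1 CPM in WT and 68.8, 83.0 and 65.0 CPM in CKO, so its differences were much smaller than those of Sox9 while the order of the libraries was the same. For Runx2, on 12 reads in all, they were Sike1 (0.963), Tnrc6a (0.954) and Mff (0.946). For Mef2c, on 53 reads, they were Eif1b (0.956), Gm42742 (0.952) and Atp5a1 (0.947).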

How the data were processed

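The authors deposited CPM per gene for 6 libraries, made with a stranded mRNA kit. The submitters' processing notes name cutadapt (version 2.5), HISAT2 and featureCounts (version 1.6.3), and the genome build and annotation are not given in the sources used here. In each library 100% of values were whole multiples of 1 read within 0.001 reads, so reads were recovered.

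Log2(CPM + 1) of the 12155 genes whose mean reached 1 CPM was fitted on genotype with limma (version 3.58.1 in R 4.3.3, empirical Bayes with trend, Benjamini-Hochberg adjustment over all genes). Fold changes are on this scale, which understates those of low genes. Ratios and shares within a library were compared by exact permutation tests over the 20 splits of 6 libraries. Alternatives were a pseudocount of 0.1, other filters, TMM factors, the replicate number as a block, each library left out, and edgeR (version 4.0.16) and DESeq2 (version 1.42.0) on the reads. The fits were tested on simulated counts. Coordinates and exon lengths came from GENCODE M21 on GRCm38, matched by identifier, and copies were sought with BLAST (version 2.17.0).

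The factors and gene lists were chosen with earlier results of these data known. The genes named were all 10 factors, the genes of each list with an adjusted p under 0.05 (at most 8 per list, by size of change), Hnrnpk, Col2a1, Acan and the 3 genes most like Sox9, Runx2 and Mef2c. Any other gene is said to be named after its values were seen.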

Additional observations from a re-analysis of the deposited data

How the results depend on the processing

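At this depth the levels of Runx1, Runx2, Runx3, Nkx3-2 and Mef2c rest on a few reads. With other pseudocounts, filters, TMM factors and tools, the factors kept 0 calls. The count of factors called lower ran from 0 to 1 with each library left out, the call being Sox9 without CKO 2 (-1.15; edgeR -1.21), and edgeR without CKO 2, added after the data were seen, called 1 as well. The log2 fold change of Runx1 ran from -1.42 to 0.033, turning positive without CKO 3. Leaving out 1 library moved the log2 fold change of Sox5 between 0.28 and 0.70, Sox6 between -0.56 and -0.11, Mef2c between -0.53 (without WT 2) and -0.016 (without WT 1), and Trps1 between 0.022 and 0.40, with no call. With a library left out, genes called higher numbered 123 to 692 and lower 79 to 606, and Runx2 and Mef2 targets called higher 1 to 5, while edgeR without CKO 2 called 659 and 656 genes and 5 of these targets. By edgeR 380 genes passed the rule on fold change and p in the higher direction. Replicate numbers are shared by the groups, but same-numbered libraries did not deviate together (correlations 0.073, -0.21 and -0.15), so the numbers were not taken as pairs. With a replicate block 225 genes were called higher and 160 lower, 2 Runx2 and Mef2 targets higher, 12 Sox targets lower and 0 factors. The Runx2 to Sox9 difference was -1.92 at a pseudocount of 0.1, and with a library left out ran from -1.05 to 0.47 (0.27 without WT 1, 0.068 without CKO 1 and 0.47 without CKO 2). The Trps1 to Runx2 difference was 2.98 at a pseudocount of 0.1. Runx1 to Runx2 ran from -0.73 to 1.65 and turned to -0.27, -0.70 and -0.73 without WT 1, CKO 1 and CKO 2. The causes of these shifts were not tested.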
